A study of Homo sapiens with 6 samples.

Results

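The interleukin-1 family ligands and receptors described here are 10 genes, the rows of the deposited count table whose gene name is IL1A, IL1B, IL36G, IL18, IL33, IL1RN, IL36RN, IL1R1, IL1RAP or IL1R2. They were 10 of 21776 genes in the table, and the rule uses their names and no measured value, although they were chosen with earlier results of these data known. Hypoxia was set against normoxia in SCC25, an established human line of oral squamous cell carcinoma, the most common cancer of the oral lining. The labels name SCC25, while the study's text names the related line SCC9 for its transcriptome, and the values below are given under the labels' name. All libraries were labelled wild type and came from cells in DMEM/F12 with 10% FBS, and no other agent or allele is named for either group. The 3 hypoxia libraries came from cells held for 12 h in a tri-gas incubator with 1% O2, 5% CO2 and the balance N2. The 3 normoxia libraries came from cells kept in 5% CO2 and air. The model is limited to a single line in culture, and only mRNA was measured.

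Interleukin-1 alpha and beta are alarm cytokines that bind the receptor chain IL1R1, which then recruits the accessory chain IL1RAP and signals through the adaptor MYD88 to NF-kB. The receptor antagonist encoded by IL1RN occupies IL1R1 without recruiting the accessory chain, and IL1R2 is a decoy that binds ligand without signalling. IL-18, IL-33 and the IL-36 cytokines are relatives with receptors of their own, and in squamous epithelium the alpha form, IL-18, IL-33 and IL-36 gamma are made by the keratinocytes themselves. IL-1 beta and IL-18 are made as precursors that caspase-1 cleaves in inflammasomes.

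The libraries held 37278703, 29637189 and 29981208 counts in normoxia replicates 1 to 3 and 30186813, 36076088 and 32272716 in hypoxia replicates 1 to 3. Levels are given as CPM, counts scaled to the normalised library total, for comparing one gene between libraries. FPKM, which also divides by gene length, was used wherever genes were set against each other. Differences are log2-fold changes of hypoxia over normoxia from edgeR's quasi-likelihood test on counts, with Benjamini-Hochberg adjustment over all 14255 genes that passed its filter on low counts. A difference is called higher or lower at an adjusted p under 0.05. The labels do not say that replicates were separate cultures, so p-values measure the spread between these libraries. The spread was small, with a biological coefficient of variation of 0.0685, and 77.8% of the tested genes passed the threshold. A call was therefore common in this table.

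The cell type was looked at before the members. Of 10 squamous epithelial markers, 9 were tested, and their summed level was 1154, 1161 and 1214 CPM in normoxia and 1413, 1391 and 1429 CPM in hypoxia. CDH1, encoding E-cadherin, was the most abundant of them, and KRT14, a basal keratin, had 3 or fewer counts in every library. Of the 9, 4 were higher (CDH1, DSG3, KRT17 and PERP), 4 lower (KRT6A, SFN, EPCAM and KRT5) and 1 not past the threshold. Of all tested genes, 39.2% were higher and 38.5% lower. CDH1 alone rose from 188 ± 10.9 to 479 ± 4.85 CPM (SD, n = 3), more than the sum did. KRT6A, a keratin with the largest change in the list, fell from 16.5 ± 3.86 to 0.951 ± 0.491 CPM (SD, n = 3), a log2-fold change of -4.12 (adjusted p = 7.48e-11). For leukocytes, the other common source of these cytokines, 8 of 10 markers had a row, summing to 35.1, 33.7 and 37.2 CPM in normoxia and 40.1, 44.5 and 46.0 CPM in hypoxia. The defining genes PTPRC, CD3E, LYZ and TYROBP were all at 3 or fewer counts in every library. Most of the sum was CD68, a lysosomal gene, at 33.1 ± 1.06 CPM in normoxia and 31.0 ± 3.36 CPM in hypoxia (SD, n = 3), while CD14 and CSF1R rose from low levels (log2-fold changes 2.45 and 2.49). Fibroblast markers summed to 4.03, 3.15 and 5.64 CPM in normoxia and 22.1, 18.7 and 17.1 CPM in hypoxia, nearly all of it COL1A1. COL3A1 was at 3 or fewer counts throughout, and COL1A2 and DCN overlapped between the groups. LUM had 1, 1 and 2 counts in normoxia and 27, 9 and 8 in hypoxia. PDGFRB had 0.322 ± 0.0679 CPM in normoxia and 0.638 ± 0.139 CPM in hypoxia (SD, n = 3), without overlap, and was not called (edgeR adjusted p = 0.0507). It passed the filter on low counts only through hypoxia, where it was higher, so these values are a description. Endothelial markers were low but higher in hypoxia, summing to 0.296, 0.315 and 0.744 CPM in normoxia and 1.57, 1.29 and 1.57 CPM in hypoxia. CDH5 was the most abundant of them, with 9, 9 and 22 counts in normoxia and 32, 28 and 34 in hypoxia. It passed the filter on low counts only through hypoxia, where it was high, so its log2-fold change of 1.14 is a description. TEK had 3 or fewer counts in every library. The part of these shifts in the results below was not tested, and in bulk libraries fewer cells of a type and less RNA per cell cannot be told apart. In a hypoxia response list, 15 of 15 genes were higher under hypoxia, where 39.2% of all tested genes were higher. Their median log2-fold change was 2.71, beside 0.023 over all tested genes. The list was chosen with earlier results of these data known, so it is not an independent check of the labels.

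The members did not move as 1 group. IL18, encoding a cytokine, and IL1RAP, encoding the shared accessory receptor chain, rose to more than double their normoxia level, whereas the agonists IL1A and IL1B fell. The decoy receptor IL1R2 was also lower, at low counts. Of the 10 members, 6 passed the filter on low counts, and 4 (IL1RN, IL36G, IL33 and IL36RN) did not. Among the 6, 2 were higher, where 39.2% of all tested genes were higher, and 3 were lower, where 38.5% were lower. IL1R1, the signalling receptor chain, did not pass. In 5 of the 6 the libraries of the conditions did not overlap, as was the case for 80.5% of all tested genes, so the share of calls is near the background. IL1R2 is among the 3 lower members, but it passed the filter on low counts only through normoxia, where it was high, so that it had to differ. With at least 10 counts asked of each library it was not tested, and 2 members were lower. The median log2-fold change of the 6 was -0.58, and that of the other 5 was the -0.46 of IL1R1, beside 0.023 over all tested genes, with single values from -2.47 to 1.39.

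**Figure D1:**
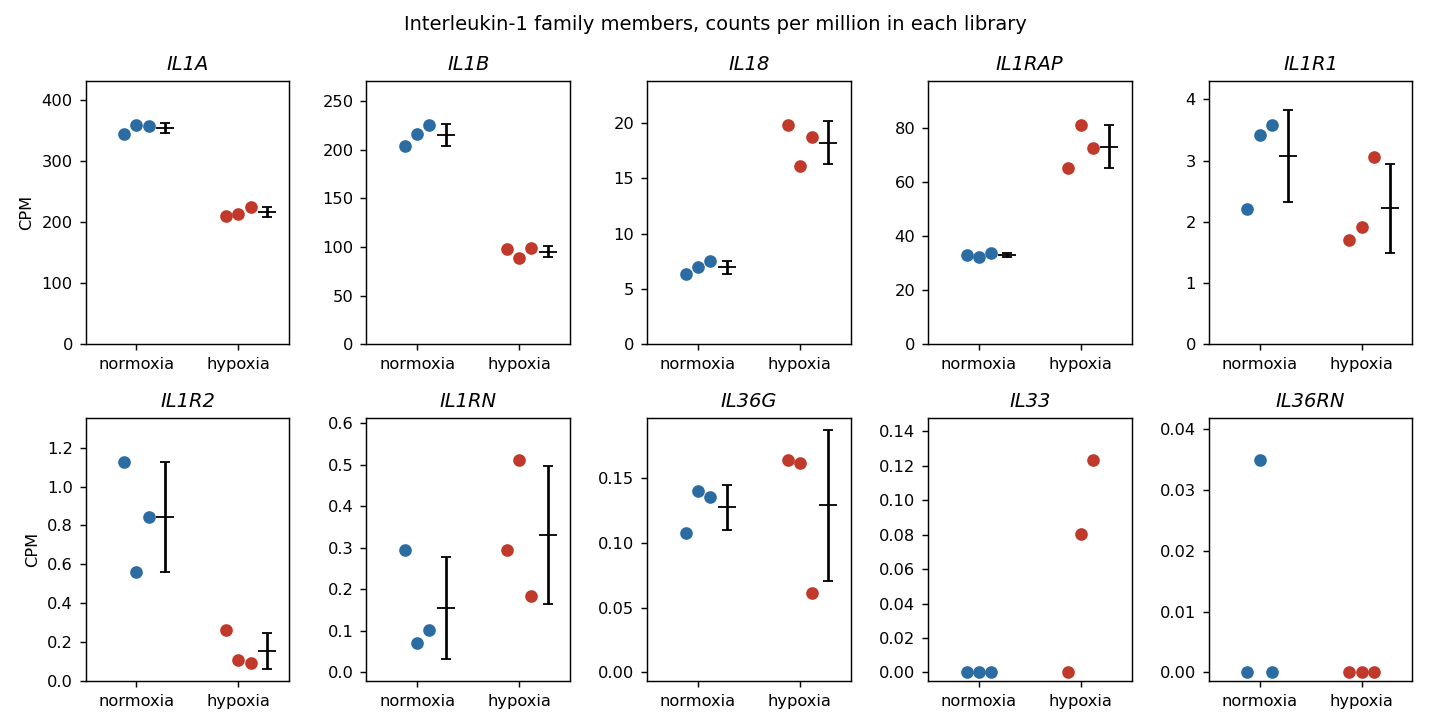
CPM of each of the 10 members (vertical axes, linear, each with its own range) in the 3 normoxia libraries (blue) and 3 hypoxia libraries (red), with means and SD as black marks except for IL33 and IL36RN, where libraries are listed at 0. IL1A, IL1B and IL1R2 lie lower and IL18 and IL1RAP higher in every hypoxia library, and the other 5 members overlap.

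Stretches of 3 promoters are printed because IL1A and IL1B, neighbouring genes on chromosome 2, both fell, while IL1RAP on chromosome 3 rose. Each is the 250 bases before the gene's start, 5′ to 3′ on the gene's own strand, from RefSeq on GRCh38.p14. That is the build of the RefSeq table, not one tied to the deposited counts. Capitals mark the letters TATAAA on the strand shown, the hypoxia response element cores ACGTG and GCGTG on either strand, the AP-1 letters TGANTCA, which read alike on both strands, and the NF-kB consensus on either strand.
IL1A, chr2:112784494-112784743, minus strand: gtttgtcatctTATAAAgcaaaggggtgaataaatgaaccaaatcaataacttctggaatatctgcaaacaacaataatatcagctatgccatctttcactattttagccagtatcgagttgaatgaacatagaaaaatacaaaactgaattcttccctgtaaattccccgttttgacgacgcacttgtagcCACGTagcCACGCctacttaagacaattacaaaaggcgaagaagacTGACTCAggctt
IL1B, chr2:112836780-112837029, minus strand: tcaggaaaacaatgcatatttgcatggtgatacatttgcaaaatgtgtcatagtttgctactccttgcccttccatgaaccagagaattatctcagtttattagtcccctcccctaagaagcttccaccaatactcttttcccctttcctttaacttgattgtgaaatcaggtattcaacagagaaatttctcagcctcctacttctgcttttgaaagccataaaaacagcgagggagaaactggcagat
IL1RAP, chr3:190513835-190514084, plus strand: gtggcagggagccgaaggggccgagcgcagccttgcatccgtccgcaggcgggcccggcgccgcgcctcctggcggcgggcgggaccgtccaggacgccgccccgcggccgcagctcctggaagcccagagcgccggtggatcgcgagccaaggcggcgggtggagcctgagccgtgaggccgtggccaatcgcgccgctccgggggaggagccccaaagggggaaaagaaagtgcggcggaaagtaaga

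The IL1A stretch held the letters ACGTG on the reverse strand at positions -58 to -54 and GCGTG on the reverse strand at -50 to -46, counted back from the start. It also held TGACTCA at -12 to -6 and TATAAA at -239 to -234. The stretches of IL1B and IL1RAP held none of the 5 motifs, which says only that these letters are not in these windows. Over all 34943 windows of this length in the RefSeq table, ACGTG stood in 18.5%, GCGTG in 32.2%, the AP-1 letters in 6.59%, TATAAA in 6.82% and the NF-kB consensus in 9.95%. GC made up 37.6% of the IL1A stretch, 40% of that of IL1B and 74.8% of that of IL1RAP, against a median of 58% over all windows. Of the 10 members, 9 had at least 1 window in the table, and several had more for different starts. The other IL1A window held both hypoxia response element cores at -151 to -147 and -143 to -139 and the AP-1 letters at -105 to -99 and -55 to -49. Among the members not printed, windows of IL1R1 held both cores, 1 of IL36RN held GCGTG, those of IL1RN held the AP-1 letters and TATAAA, and 1 of IL1R2 held TATAAA and a match to the NF-kB consensus. A match of letters is a description of the sequence and not of binding, and no binding was measured.

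Among the agonist ligands, IL1A was the most abundant member in both conditions. It had 344, 358 and 357 CPM in normoxia replicates 1 to 3 and 210, 213 and 225 CPM in hypoxia replicates 1 to 3. All hypoxia libraries were lower than all normoxia libraries, and each group spanned a narrow range. The mean went from 353 ± 7.95 to 216 ± 8.08 CPM (SD, n = 3), a log2-fold change of -0.71 (edgeR adjusted p = 8.19e-10, standard error 0.051) or 1.64-fold lower.

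IL1B, whose product is secreted after cleavage by caspase-1, lies beside IL1A in the gene order and fell further. Its values were 203, 216 and 226 CPM in normoxia and 98.0, 88.6 and 98.4 CPM in hypoxia. The highest hypoxia library was below the lowest normoxia library by a wide margin. The mean went from 215 ± 11.1 to 95.0 ± 5.58 CPM (SD, n = 3), a log2-fold change of -1.18 (edgeR adjusted p = 8.94e-12, standard error 0.059), 2.26-fold lower.

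Because IL1B lost more than IL1A, the makeup of the interleukin-1 transcripts shifted. On the FPKM scale IL1A exceeded IL1B by 1.26, 1.24 and 1.18 times in normoxia and by 1.60, 1.80 and 1.71 times in hypoxia, without overlap. These ratios rest on the gene lengths behind the FPKM, and with the exon lengths of GENCODE v29 IL1A exceeded IL1B by more in both conditions (164 against 68.3 in normoxia and 103 against 31.2 in hypoxia). Their summed level was 293, 297 and 309 FPKM in normoxia and 164, 162 and 171 FPKM in hypoxia. They still made up 87.4%, 87.9% and 88.0% of the summed FPKM of all 10 members in hypoxia, against 97.0%, 97.0% and 96.9% in normoxia.

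IL18, encoding the other substrate of caspase-1 among the members, moved the opposite way. It had 237, 200 and 222 counts in normoxia and 606, 600 and 609 in hypoxia, which gave 6.37, 6.99 and 7.50 CPM and 19.8, 16.1 and 18.8 CPM. All hypoxia libraries were above all normoxia libraries, and no library stood apart within its group. The mean rose from 6.95 ± 0.569 to 18.2 ± 1.91 CPM (SD, n = 3), a log2-fold change of 1.39 (edgeR adjusted p = 5.06e-09, standard error 0.11), 2.63-fold higher. It was the largest increase among the 6 tested members.

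The remaining agonists were at the limit of counting. IL36G, whose product acts on the IL-36 receptor of epithelial cells, had 4, 4 and 4 counts in normoxia and 5, 6 and 2 in hypoxia. IL33, a nuclear alarm cytokine of barrier cells, had 0 counts in each normoxia library and 0, 3 and 4 in hypoxia. The conditions overlapped in IL36G and shared the value 0 in IL33, and both genes failed the threshold when edgeR was run without the filter on low counts (adjusted p = 0.992 and 0.0620). A count of 0 allows up to 3 counts, which is 0.0806 to 0.105 CPM in these libraries by counting error alone, so a difference in IL33 was not resolvable at this depth.

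Transcripts of the receptor antagonists were scarce. IL1RN had 11, 2 and 3 counts in normoxia and 9, 19 and 6 in hypoxia, and the groups overlapped. Without the filter its log2-fold change was 0.98 (edgeR adjusted p = 0.262, standard error 0.73), which does not pass. IL36RN, the antagonist of the IL-36 receptor, had 1 count in normoxia replicate 2 and 0 in every other library.

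The balance of antagonist to agonist was taken as the log2 ratio of IL1RN to the sum of IL1A and IL1B in FPKM. It was -11.3, -13.4 and -12.9 in normoxia and -10.4, -9.58 and -11.2 in hypoxia. Antagonist transcripts were thus a minute fraction of the agonist transcripts in every library. The mean ratio was 2.15 log2 units higher in hypoxia (p = 0.1 by an exact permutation test, two-sided, which cannot give a smaller p with 3 libraries on each side). The groups did not overlap, but the lowest hypoxia library and the highest normoxia library lay close together, and the numerator rests on 2 and 3 counts in normoxia replicates 2 and 3. The difference was 1.70 to 2.78 with one library left out and 0.95 with 1 FPKM added to each gene, so its size is not settled. Part of it repeats the fall of IL1A and IL1B, which form the denominator. IL1RN by itself overlapped between the groups and did not pass.

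Of the receptor genes, IL1RAP rose. It encodes the chain that joins the receptors for IL-1, IL-33 and IL-36 into signalling complexes. Its values were 33.1, 32.4 and 33.7 CPM in normoxia and 65.3, 81.2 and 72.7 CPM in hypoxia. The normoxia libraries were nearly equal, the hypoxia libraries more spread, and the groups did not overlap. The mean rose from 33.1 ± 0.687 to 73.1 ± 7.97 CPM (SD, n = 3), a log2-fold change of 1.14 (edgeR adjusted p = 1.99e-10, standard error 0.074), 2.21-fold higher. In GENCODE v29, 535 bases of its exons, 4.63%, are shared with AC108747.1 on the same strand, which has no row in the count table.

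IL1R1, the chain that binds IL-1 directly, had 2.20, 3.42 and 3.58 CPM in normoxia and 1.70, 1.91 and 3.05 CPM in hypoxia. Hypoxia replicate 3 lay above normoxia replicate 1, so the groups overlapped. The log2-fold change was -0.46 (edgeR adjusted p = 0.119, standard error 0.26) and did not pass. It passed when 1 of these 2 libraries was left out, at -0.76 without hypoxia replicate 3 (adjusted p = 0.0243) and -0.67 without normoxia replicate 1 (adjusted p = 0.0315), so whether IL1R1 fell depends on single libraries.

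IL1R2, the decoy receptor, had 42, 16 and 25 counts in normoxia and 8, 4 and 3 in hypoxia. The hypoxia libraries were all below the normoxia libraries, and hypoxia replicate 3 was at the limit of counting. In CPM the mean went from 0.844 ± 0.285 to 0.154 ± 0.0938 (SD, n = 3), a log2-fold change of -2.47 (edgeR adjusted p = 3.03e-04, standard error 0.51). Among the 6 tested members this was the largest change in size and the one with the widest standard error, and it ran from -3.05 to -2.20 over the other fits to counts. Because only the normoxia libraries carried the gene past the filter, its call and size are given as a description.

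Set against each other per gene length, the members ran from highly abundant to undetected in the FPKM table. In normoxia the means were 165 FPKM for IL1A, 135 for IL1B, 5.92 for IL18, 2.81 for IL1RAP and 0.444 for IL1R1, and no library of one overlapped with the next. IL36G (0.103 FPKM), IL1R2 (0.0975) and IL1RN (0.0621) followed, each overlapping with its neighbour in the order, and then IL36RN and IL33 at or near 0. In hypoxia the first 5 places were the same, at 104, 61.4, 16.0, 6.42 and 0.332 FPKM, again without overlap. IL1RN (0.136 FPKM) and IL36G (0.108) overlapped with each other, and IL33 with IL1R2. Among all 21776 genes, IL1A was at place 330 by FPKM in normoxia and 523 in hypoxia, IL1B at 429 and 886, IL18 at 6484 and 3191, and IL1RAP at 8508 and 6142. IL1R1 was at place 11705 in normoxia and 13100 in hypoxia.

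**Figure D2:**
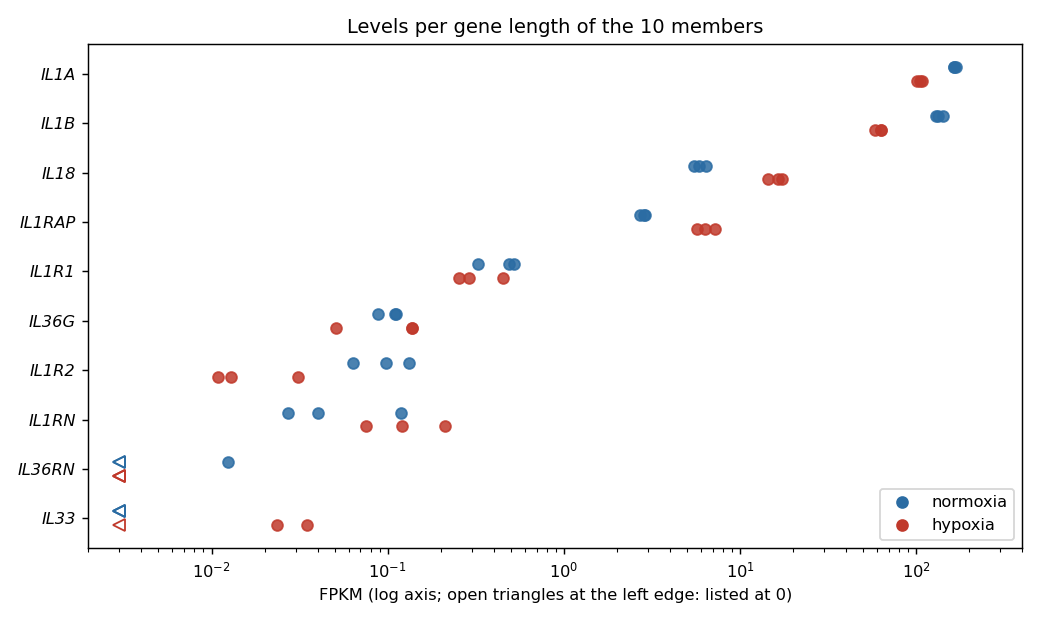
FPKM of the 10 members (horizontal log axis) in each normoxia library (blue) and hypoxia library (red), ordered by the normoxia mean. Open triangles at the left edge stand for libraries listed at 0, and IL1A and IL1B lie above 50 FPKM in every library while the receptor chain IL1R1 lies below 1 FPKM.

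The order rests on the gene lengths behind the FPKM. The length the deposited values imply was 2103 bases for IL1A, close to the 2124 bases of its exons in GENCODE v29, but 1571 against 3096 for IL1B, 1155 against 2628 for IL18 and 8547 against 3073 for IL1R2. With the GENCODE lengths, an alternative added after the data had been seen, IL1A stayed above IL1B, by more than with the implied lengths. IL18 then had 2.60 and IL1RAP 2.81 in normoxia, and 7.05 and 6.43 in hypoxia, with overlapping libraries in both conditions, so their order is not fixed. IL1R2, at 0.271 in normoxia, then overlapped with IL1R1 (0.426) and lay above IL36G (0.0907). The places of IL18, IL1RAP, IL1R1 and IL1R2 in the order therefore depend on the gene lengths. Fold changes within a gene do not depend on its length.

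The rest of the family was taken from a list of 12 genes, of which 9 had a row and 4 were tested. Of these, 2 were higher and 0 lower, where 39.2% of all tested genes were higher and 38.5% lower. The median log2-fold change was 0.52. That median includes IL18R1, which passed the filter on low counts only through hypoxia, and without IL18R1 it is the 0.23 of SIGIRR. IL18BP, the secreted protein that traps IL-18, had 9.73, 8.49 and 8.42 CPM in normoxia and 16.6, 14.7 and 15.4 CPM in hypoxia. The groups did not overlap, and the log2-fold change was 0.81 (edgeR adjusted p = 2.29e-06, standard error 0.11). Thus IL18 and its binding protein rose in the same libraries, IL18 by the larger factor. IL18BP shares 15.6% of its exon bases with NUMA1 on the opposite strand, which was far more abundant (384 CPM in normoxia and 459 CPM in hypoxia) and rose by a log2-fold change of 0.26. Whether the counting used the strand is not given in the sources used here, so reads of the 2 genes cannot be told apart there.

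SIGIRR, an inhibitory receptor of the family, rose from 28.6 ± 1.80 to 33.5 ± 1.56 CPM (SD, n = 3), a log2-fold change of 0.23 (edgeR adjusted p = 0.00867), and lost the call without normoxia replicate 1 (adjusted p = 0.0611). The receptor chain for IL-18, IL18R1, had 0.402 ± 0.112 CPM in normoxia and 0.765 ± 0.299 CPM in hypoxia (SD, n = 3). Its edgeR adjusted p was 0.0594 and fell to 0.0490 without hypoxia replicate 2. IL18R1 passed the filter on low counts only through hypoxia, where it was higher, so these values are a description. Its partner IL18RAP had 1 count in all libraries together. IL1RL2, the IL-36 receptor chain, did not pass (2.35 ± 0.592 and 1.90 ± 0.170 CPM, SD, n = 3, adjusted p = 0.279). IL1RL1, the receptor chain for IL-33, had at most 4 counts in a library, as had IL36B. IL37, encoding a suppressive ligand, had 8 counts in normoxia replicate 1 and at most 3 elsewhere, and IL1RAPL1, a neuronal relative, had 9 counts in normoxia replicate 1 and 0 elsewhere. In RefSeq gene order, 15 of the 22 family genes looked up, 7 members among them, lie on chromosome 2, in a run of ligand genes from IL1A to IL1RN and a run of receptor genes from IL1R2 to IL18RAP.

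**Figure D3:**
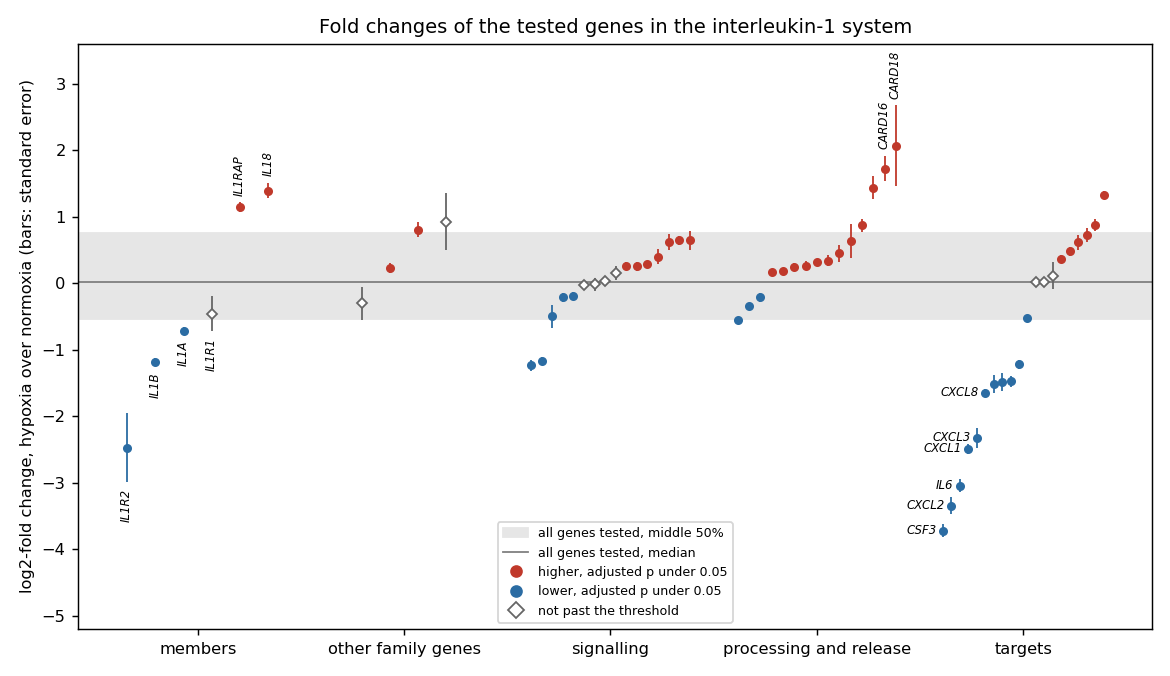
Log2-fold change of hypoxia over normoxia (vertical axis, bars are standard errors) for each tested gene of the members, the other family genes and 3 pathway lists, ordered by value within a list. Red and blue circles passed an adjusted p of 0.05 and open diamonds did not, and the grey band and line give the middle 50% and the median (0.023) of all 14255 tested genes, against which the targets reach lowest, with CSF3 at -3.72.

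Genes that release or ripen the ligands, with some that hold these steps back, were taken as a list of 18, of which 15 were tested. Of these, 12 were higher and 3 lower, where 39.2% of all tested genes were higher and 38.5% lower. The median log2-fold change was 0.32 beside 0.023 for all genes. The 12 include CARD18, which passed the filter on low counts only through hypoxia, and without CARD18 the median lies between 0.27 and 0.32. They also mix directions of action, because CARD16 and CARD18 hold back caspase-1 and CAST holds back calpain. CASP1, the protease that cleaves the precursors of IL-1 beta and IL-18, had 10.7, 13.5 and 13.1 CPM in normoxia and 22.6, 23.1 and 22.5 CPM in hypoxia. The hypoxia libraries lay together and well above normoxia, with a log2-fold change of 0.87 (edgeR adjusted p = 3.12e-07, standard error 0.098). PYCARD, the adaptor ASC that joins sensors to caspase-1, had 4.19, 3.95 and 7.13 CPM in normoxia and 13.6, 13.2 and 14.4 CPM in hypoxia. Its normoxia replicate 3 was the highest of its group and still far below hypoxia, and the log2-fold change was 1.44 (edgeR adjusted p = 5.73e-07, standard error 0.17). PYCARD shares 59.7% of its exon bases with PYCARD-AS1 on the opposite strand, which is listed at 0 in normoxia and had a mean of 0.132 CPM in hypoxia.

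The largest fitted increases in this list were those of CARD18 and CARD16, caspase recruitment domain proteins known to hold back caspase-1. CARD16 rose from 1.97 ± 0.455 to 6.54 ± 0.453 CPM (SD, n = 3), a log2-fold change of 1.73 (edgeR adjusted p = 2.09e-07). CARD18 had 1, 5 and 7 counts in normoxia and 20, 29 and 11 in hypoxia, and passed the filter on low counts only through hypoxia, where it was high. Its fold change is therefore a description, at 0.146 ± 0.108 and 0.591 ± 0.227 CPM (SD, n = 3), with a log2-fold change of 2.07 (edgeR adjusted p = 0.00477, standard error 0.60). Both are near copies of a part of CASP1, so counting could have divided reads among the 3 genes, and their values are uncertain for that reason. Of the 3 genes that fell, CAPN2 encodes a calpain, the kind of protease that trims pro-IL-1 alpha, and had a log2-fold change of -0.55 (adjusted p = 2.84e-08). The calpain genes CAPN1 and CAPNS1 of the same list rose by 0.18 and 0.17 on the log2 scale (edgeR adjusted p = 0.00227 and 0.0065). CAST, encoding the calpain inhibitor calpastatin, rose by more, 0.32 on the log2 scale (edgeR adjusted p = 3.58e-05). CAPNS1 lost its call without normoxia replicate 1 (adjusted p = 0.0695). CASP4, the caspase that senses intracellular lipopolysaccharide, fell by 0.34 and NLRP1, an inflammasome sensor of keratinocytes, by 0.21 on the log2 scale (adjusted p = 1.96e-05 and 0.0114). NLRP1 lost its call without hypoxia replicate 3, without normoxia replicate 1, under a minimum of 10 counts per library and in the fits to FPKM. AIM2, a sensor of cytosolic DNA, was among the 12 higher genes (log2-fold change 0.63, edgeR adjusted p = 0.0337). It lost the call when hypoxia replicate 2 (adjusted p = 0.12) or 3 (0.0873) was left out, when normoxia replicate 1 (0.0997) or 3 (0.0655) was, without the filter on low counts (0.0608) and with the replicate number as a block (0.0604). The sensor genes NLRP3 and NLRC4 did not pass the filter on low counts, with at most 14 and 6 counts in a library.

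Signalling genes downstream of the receptors were taken as a list of 17, of which 16 were tested. Of these, 7 were higher, 5 lower and 4 not past the threshold, where 39.2% of all tested genes were higher and 38.5% lower. The median log2-fold change was 0.096. The largest decreases were those of CHUK, the kinase IKK alpha, and IRAK1, the kinase that carries the signal from MYD88 to TRAF6. IRAK1 had 416, 414 and 383 CPM in normoxia and 191, 170 and 177 CPM in hypoxia. The groups were far apart, with a log2-fold change of -1.17 (edgeR adjusted p = 6.26e-12, standard error 0.057). CHUK fell from 51.8 ± 3.84 to 22.1 ± 2.09 CPM (SD, n = 3), a log2-fold change of -1.23 (edgeR adjusted p = 2.41e-10). IKBKG, the regulatory subunit NEMO, had a log2-fold change of -0.50 (adjusted p = 0.0140), which lost its call without normoxia replicate 3 (adjusted p = 0.0755). MYD88 itself had one of -0.21 (adjusted p = 0.00728), which did not pass under a minimum of 10 counts per library or in the fits to FPKM.

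The 4 largest increases among signalling genes were smaller in size than the decreases of CHUK and IRAK1. PELI1, an E3 ligase acting on IRAK proteins, had a log2-fold change of 0.65, IKBKB, the kinase IKK beta, one of 0.64 and IRAK4, the first kinase at MYD88, one of 0.62 (edgeR adjusted p = 6.46e-04, 3.15e-07 and 2.19e-04). IRAK3, an inhibitory member of the kinase family, rose from 8.57 ± 0.254 to 11.3 ± 1.22 CPM (SD, n = 3, log2-fold change 0.40, adjusted p = 0.00474). Among the kinases named here, IRAK1 and CHUK were lower and IRAK3, IRAK4 and IKBKB higher. This describes single genes, and a pattern among them was not tested.

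Genes known to be induced by IL-1 through NF-kB were taken as a list of 23, of which 20 were tested. Of these, 11 were lower, 6 higher and 3 not past the threshold, where 38.5% of all tested genes were lower and 39.2% higher. The median log2-fold change was -0.88 beside 0.023 for all genes. The 4 largest decreases were those of CSF3, CXCL2, IL6 and CXCL1. CSF3, encoding G-CSF, had 63.5, 65.9 and 54.8 CPM in normoxia and 4.09, 5.03 and 4.75 CPM in hypoxia. The groups were more than 10-fold apart, with a log2-fold change of -3.72 (edgeR adjusted p = 7.78e-15, standard error 0.099).

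CXCL1, a chemokine for neutrophils, had 761, 784 and 684 CPM in normoxia and 148, 115 and 133 CPM in hypoxia. No library came near the other group, and the log2-fold change was -2.50 (edgeR adjusted p = 5.3e-14). Its paralog CXCL2 had a log2-fold change of -3.35 (adjusted p = 3.51e-13), and reads can be divided among the near copies CXCL1, CXCL2 and CXCL3. IL6, encoding interleukin-6, fell from 45.2 ± 4.11 to 5.48 ± 0.303 CPM (SD, n = 3), a log2-fold change of -3.04 (edgeR adjusted p = 4.21e-14). IL6 shares 20.7% of its exon bases with an opposite-strand gene that has no row. CXCL8 and TNF, named for their known roles, had log2-fold changes of -1.66 and -1.52.

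Not all targets fell. ICAM1, an adhesion molecule for leukocytes, had 185, 188 and 202 CPM in normoxia and 441, 509 and 493 CPM in hypoxia. All hypoxia libraries were more than double the highest normoxia library, with a log2-fold change of 1.33 (edgeR adjusted p = 2.59e-12, standard error 0.060). ICAM1 shares 22% of its exon bases with an opposite-strand gene that has no row. TNFAIP3, the NF-kB inhibitor A20, rose from 90.1 ± 8.16 to 165 ± 25.4 CPM (SD, n = 3, log2-fold change 0.88, adjusted p = 9.10e-08). CCL20, a chemokine, and PTGS2, the cyclooxygenase COX-2, had log2-fold changes of 0.73 and 0.62 (edgeR adjusted p = 4.24e-06 and 7.91e-05). NFKBIA, SOD2 and CXCL6 did not pass, with log2-fold changes of 0.014, 0.020 and 0.11. SOD2 shares 44.6% of the exon bases of 1 of its gene models with ACAT2 on the opposite strand.

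**Figure D4:**
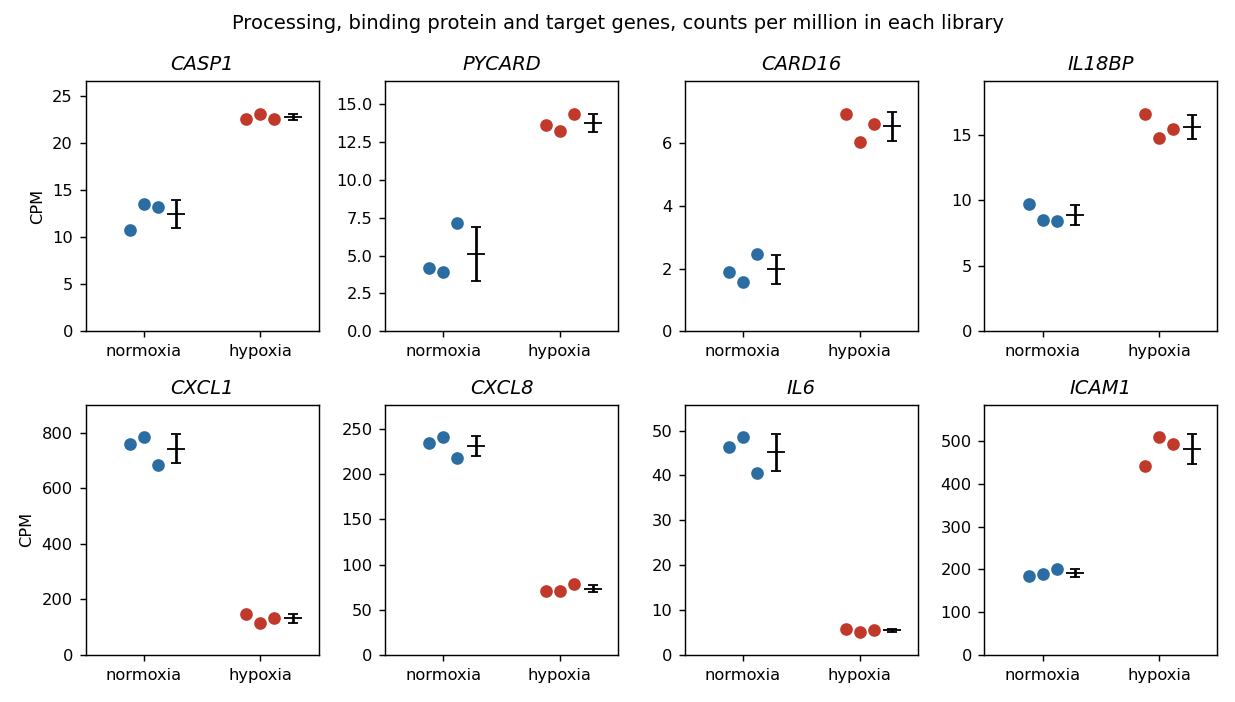
CPM (vertical axes, linear from 0, each with its own range) of 4 processing and binding genes (top) and 4 target genes (bottom) in the 3 normoxia libraries (blue) and 3 hypoxia libraries (red), with means and SD as black marks. CASP1, PYCARD, CARD16, IL18BP and ICAM1 lie higher and CXCL1, CXCL8 and IL6 lower in every hypoxia library.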

How the data were processed

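The authors deposited whole-number counts of reads per gene, not normalised, and FPKM values of the same 21776 genes. For 21775 of them the FPKM followed from counts, 1 gene length and the library total within 0.001%. Aligner, annotation, counting tool and strand setting are not given in the sources used here. The submitters' processing notes list GRCm38 and mm10, which are mouse builds, while the gene names are human, so no coordinates of the files are given. All columns were mapped to samples by condition and replicate number.

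From the counts, edgeR 4.0.16 in R 4.3.3 was used (TMM, filterByExpr, quasi-likelihood F test with 1 term for condition, Benjamini-Hochberg adjustment at 0.05). Genes at 3 or fewer counts in a library were taken as at the limit of counting, and intervals and floors cover counting error only. No replicates differed by less than the sampling noise. Exact permutation tests were two-sided. Ratios of IL36RN to IL36G and of IL1R2 to IL1R1 are not given, because a library had 3 or fewer counts. For IL1RN, whose test was set without such a minimum, the ratio is given with that limit.

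Alternatives were DESeq2 1.42.0 (size factors, Wald test), other filters on low counts, a replicate block, each library left out, limma 3.58.1 on log2(FPKM + 1) and on log2(FPKM + 0.1), and a minimum size of 1 for the log2-fold change. On simulated counts with 195 changed genes among 14239 (a log2-fold change of 1), edgeR found 183, with 3.17% of its calls false. The simulation gave all genes the same spread and changed far fewer of them than the 77.8% called here. Its share of false calls therefore does not carry over to these data.

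The members and the lists of genes were chosen with earlier results of these data known. Named genes are all members, the rest of the family with a row, and in each other list the 4 called genes of largest change in each direction, with CXCL8 and TNF for their known role and 3 genes each for likeness to IL18 and IL1B. The markers, the genes sharing exons, AIM2, CAPN1, CAPNS1, CAST, CXCL3, CXCL6, NFKBIA, SOD2, NLRP3, NLRC4, MMP3 and CCL2 were named after their values were seen. Shared exons and lengths came from GENCODE v29, promoters and gene order from RefSeq (GRCh38.p14).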

Additional observations from a re-analysis of the deposited data

How the results depend on the processing

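At an adjusted p of 0.05, the call of every tested member stood under every alternative that could test it, except that of IL1R1 (34 of 36 results with one library left out and 43 of 43 others). IL1A stayed between -0.75 and -0.63, IL1B between -1.23 and -1.10, IL18 between 1.30 and 1.47 and IL1RAP between 0.96 and 1.22 in log2-fold change. IL1R2 came to -0.11 by limma on log2(FPKM + 1) without a filter, a scale that compresses low genes by its construction. Equal replicate numbers did not pair the libraries (correlations of their deviations 0.0175, -0.069 and 0.0012), and with the replicate block 10875 genes were called. It changed no member's call (IL1R1 log2-fold change -0.48, adjusted p = 0.0805), left the ratio of IL1RN to IL1A plus IL1B at 2.15 and among the other genes AIM2 lost its call (adjusted p = 0.0604). Requiring a log2-fold change beyond 1 in size left 4338 of 11090 genes, 2840 of 5595 higher and 1498 of 5495 lower. This also left 2 of 2 members as higher and 2 of 3 as lower, without IL1A but with IL1R2. As higher it left 0 of 2 other family genes, 0 of 7 signalling, 3 of 12 processing and 1 of 6 target genes. CARD18, given as a description, is among the 3 processing genes. As lower it left 2 of 5 signalling and 0 of 3 processing genes. Signalling genes called lower were 3 with at least 10 counts in every library, with limma on log2(FPKM + 1), on log2(FPKM + 0.1) and without its filter. The minimum of 10 counts moved log2-fold changes up by a median of 0.078. Without a filter on low counts 1 other family gene was lower, IL1RAPL1. With one library left out, 10669 to 11390 genes were called and other family genes called higher were 1 to 3. The log2 ratio of IL1RN to IL1A plus IL1B was 0.95 in place of 2.15 with 1 FPKM added to each gene, an amount above the level of IL1RN, and 1.70 to 2.78 with one library left out. Among the other tested genes of the family and pathway lists, 14 of 426 results under other alternatives and 9 of 330 with one library left out lost a call. Depth limits IL1RN, IL36G, IL33 and IL36RN, which had at most 19 counts in a library.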

Other observations

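The tested genes most like IL18 over the 6 libraries, by the root mean square difference of log2 CPM centred on each gene's mean, were MSMO1 (0.0503), EML2 (0.0764) and NIPSNAP1 (0.077). MSMO1, a sterol synthesis enzyme gene, had a mean of 86.8 CPM in normoxia and 229 CPM in hypoxia. The genes most like IL1B by the same measure were SLIRP (0.0372), PMF1 (0.0373) and ARMC5 (0.0385). SLIRP, a mitochondrial RNA binding protein gene, had a mean of 48.6 CPM in normoxia and 21.9 CPM in hypoxia. This is a description over 3 libraries per condition, with no test.

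Below the filter on low counts, MMP3, encoding a matrix metalloproteinase of the target list, had 6, 3 and 8 counts in normoxia and 1, 0 and 0 in hypoxia, and CCL2, encoding a monocyte chemokine, had 7, 6 and 7 counts in normoxia and 4, 5 and 0 in hypoxia. NLRP3, the inflammasome sensor gene, had 14, 10 and 4 counts in normoxia and 1, 7 and 3 in hypoxia. CCL2 and NLRP3 did not pass without the filter (adjusted p = 0.274 and 0.133 by edgeR's quasi-likelihood test), and MMP3 did (adjusted p = 0.0149).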
